A study of Mus musculus with 38 samples.

Results

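The libraries described here come from mouse cells that carried a Klf4 transgene and had spent 3 days in iCD1, a defined medium in which primed pluripotent cells are reset towards the naive state. The 2 starting populations had been taken through that primed to naive transition (PNT). The first were WT kiEpiSC, EpiSC-like cells made in culture by converting wild-type embryonic stem cells (ESCs) to the primed state and then carrying Klf4. The second were kEpiSC, a stable Klf4 line made from epiblast stem cells (EpiSCs) that had been derived from embryos. The members were picked by sample title, with earlier results of these data known. They were 2 libraries of WT kiEpiSC after 3 days in iCD1 (labelled WT-kiEpiSC-iCD1) and 2 of kEpiSC after 3 days in iCD1 (labelled kiPSC-iCD1-D3), which makes 4 of the 38 RNA-seq libraries of the series.

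Other libraries of the same systems served for comparison. With JNKi, SP600125, an inhibitor of the JNK kinases that activate c-Jun, there were 2 day 3 libraries of WT kiEpiSC (WT-kiEpiSC-JNKi) and 2 of kEpiSC (kiPSC-iCD1-JNKi-D3), for which the labels give no dose. In primed culture there were 1 library of WT-iEpiSC and 1 of WT-kiEpiSC, the last with no day in its label, and 2 libraries of kEpiSC. All groups carried wild-type Jun. The ESCs and EpiSCs of the study both came from crosses with males that carry an Oct4-GFP reporter, and the Klf4 transgene of kEpiSC is described both as driven by a CAG promoter and as delivered by a lentivirus. The study calls RNA-seq replicates biological in the legend that covers the WT cells, but no label says that they came from separate cultures. Every p-value here thus measures the spread between replicate libraries, which may be technical. WT-iEpiSC and WT-kiEpiSC were fitted as groups of 1 library each, so the spread between them entered no test. In primed cells and in the change over 3 days, the WT primed side borrowed its spread from the other groups. Each system is 1 line of cells, so a difference between the systems cannot be told apart from a difference between 2 lines.

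On day 3 in iCD1 the libraries of the systems also differed in total counts and in effective length. The WT kiEpiSC day 3 libraries held 2882932 and 3056886 counts, against 6695094 and 4623796 in the kEpiSC day 3 libraries, and the 2 kEpiSC primed libraries held 15944950 and 15754521. The gap between gene length and effective length, which tracks the fragment size that RSEM used, was 137 and 139.7 bases in the WT kiEpiSC day 3 libraries, against 174 and 163 bases in the kEpiSC ones. This difference ran with the system in every library compared, and its part in the results cannot be told apart from that of the cells. Genes under 500 bases long had a median log2 fold change of 0.365 between the systems on day 3 (121 genes, 19 higher and 0 lower in WT kiEpiSC), while the medians of the classes from 1000 bases upwards lay between -0.053 and 0.027. No pair of replicate libraries was a duplicate: chi-square values per degree of freedom were 3.91 to 7.56 within the 5 pairs used here, where sampling noise alone gives about 1.

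In the mouse, naive ESCs and primed EpiSCs stand for the epiblast before and after implantation. They share Pou5f1 and Sox2 but rest on different enhancers, signals and metabolism: naive cells depend on LIF and STAT3 and express Klf2, Klf4, Esrrb, Tfcp2l1 and Zfp42, whereas primed cells depend on Activin and FGF and express Fgf5, Otx2 and Zic2. Klf4 is one of the factors that can carry primed cells back. AP-1, the dimeric factor built from JUN and FOS proteins, is induced by growth factors and stress through JNK and ERK, and c-Jun has been studied as an obstacle to resetting.

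Levels are given as CPM (counts scaled to the library total, with TMM factors over all 38 libraries), each value in the order of the replicate numbers. Fold changes are log2 ratios of the WT system over the kEpiSC system, followed by their standard error, and come with Benjamini-Hochberg adjusted p-values of edgeR's quasi-likelihood test over 13432 genes, fitted to 12 libraries. CPM values compare a gene between libraries, not one gene with another. The gene lists were also chosen with earlier results known, so list counts beside the share of all genes are a description. In bulk RNA, fewer cells of a type and less RNA per cell cannot be told apart.

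On day 3 in iCD1, 878 of 13432 genes differed between the systems (6.54%), of which 489 were higher (3.64%) and 389 lower (2.9%) in WT kiEpiSC. At 2-fold or more there were 484 (3.6%). Genes of amino acid supply, glycolysis and cholesterol synthesis were higher in WT kiEpiSC, whereas epithelial genes, several immediate early genes and Klf4 itself were lower. The same systems with JNKi, in libraries outside the first contrast, differed at 1458 genes (10.9%), 735 higher (5.47%) and 723 lower (5.38%). Both contrasts came from the same fit and shared its estimate of the spread. Of the 878 genes, 414 passed in the same direction with JNKi (47.2% of the first list and 28.4% of the second), and 791 (90.1%) had the same sign there, against 66.9% of all genes tested. The count in iCD1 leaned on each library: it was 306 without WT kiEpiSC replicate 1, 392 without replicate 2, 287 without kEpiSC replicate 1 and 362 without replicate 2, and 150 when the spread was estimated over all 38 libraries. Of the calls 55.7% were higher in WT kiEpiSC, against 30.0% of the 633 calls by limma on log2(TPM + 1), a scale that moved the median of all genes to -0.13.

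**Figure D1:**
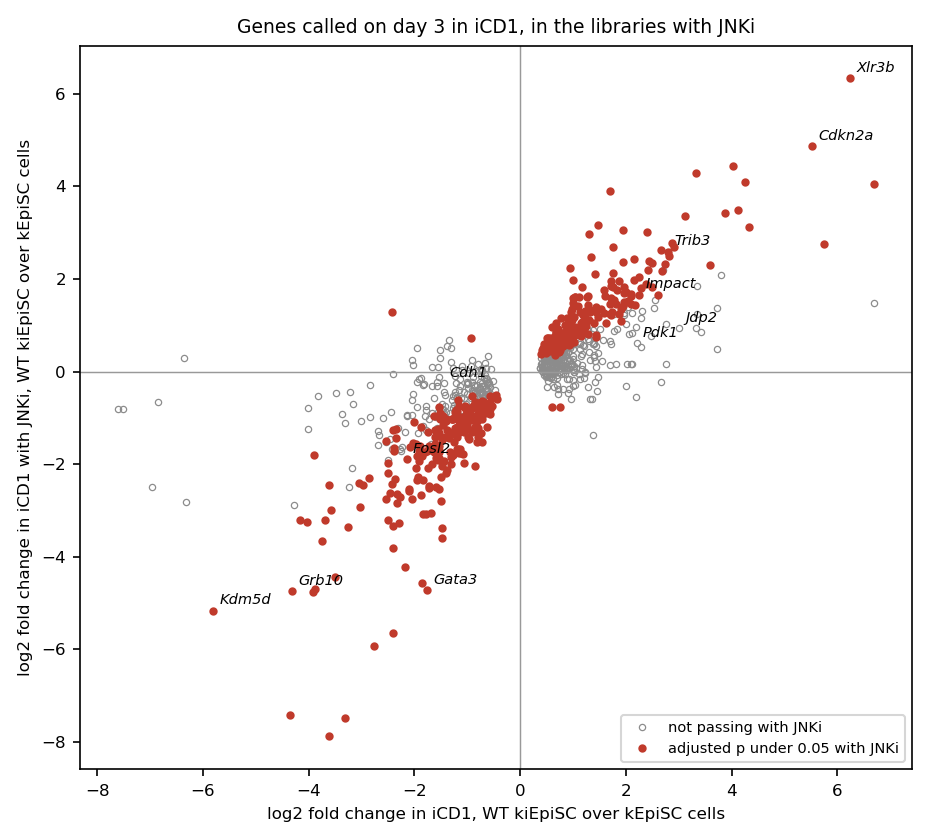
Each point is 1 of the genes called on day 3 in iCD1, with its log2 fold change (WT kiEpiSC over kEpiSC cells) in iCD1 on the x axis and with JNKi on the y axis; red points also passed with JNKi. Of the 878 genes, 791 lie in the quadrants where both values have the same sign, and Kdm5d, Grb10, Xlr3b and Cdkn2a lie far out in both media.

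Of the primed markers, Fgf5 and Otx2 were at or near 0 in both day 3 populations, while the summed level of the 29 genes of the primed list was 1780.0 and 1639 CPM in WT kiEpiSC and 1872 and 1852 CPM in kEpiSC cells. Fgf5, a ligand that marks the primed epiblast, had no count in any of the 4 day 3 libraries in iCD1, against 138 and 179 CPM in the WT primed libraries and 86.0 and 59.9 CPM in the kEpiSC primed ones. Otx2, a primed homeobox factor, was at 0.678 and 0.645 CPM in WT kiEpiSC and 0.424 and 0.205 CPM in kEpiSC cells. Tfcp2l1, a naive factor at a mean of 1059 CPM in the ESC libraries, was at 8.81 and 20.6 CPM in WT kiEpiSC and 14.6 and 9.45 CPM in kEpiSC cells.

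Over whole profiles, and among the stages of the kEpiSC system without JNKi, the WT kiEpiSC libraries lay nearest to day 3. The root mean square difference in log2(CPM + 1) over the tested genes from the mean of the kEpiSC day 3 libraries was 0.586 for replicate 1 and 0.573 for replicate 2. From day 2 it was 0.663 and 0.600, from day 1 0.964 and 0.903, and from the ESC libraries 1.454 and 1.372. The 2 WT kiEpiSC replicates differed from each other by 0.468, and the 2 kEpiSC replicates by 0.386. From the kEpiSC day 3 libraries with JNKi the distance was 0.574 and 0.537, no larger than from those without it, and from the mean of WT kiEpiSC with JNKi it was 0.606 and 0.511. Each library was thus nearer to its own replicate than to the other system. These values are a description with no test, and a mean over libraries is a little nearer to any library than a single one.

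**Figure D2:**
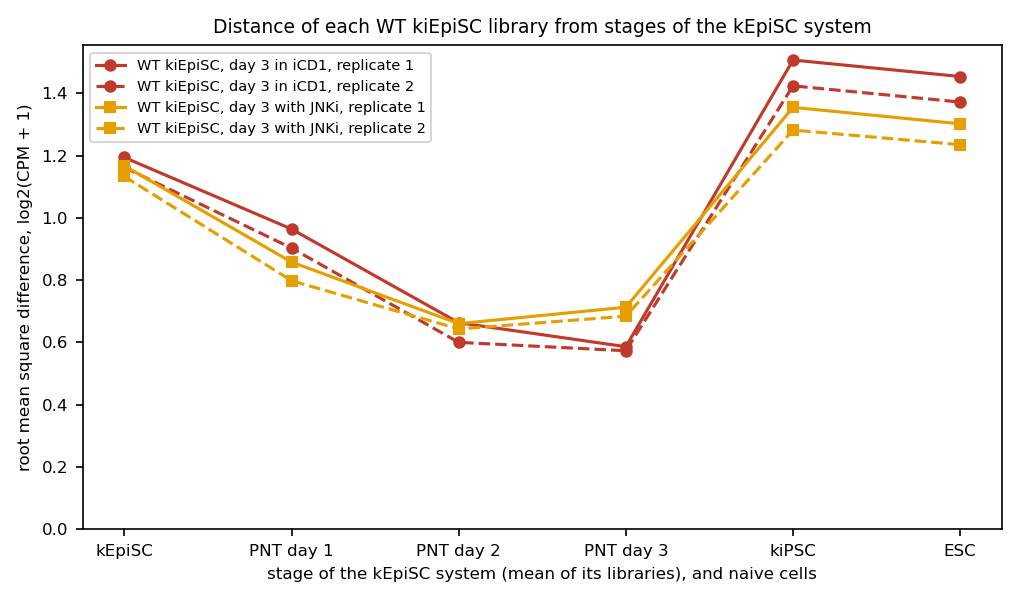
The y axis gives the root mean square difference in log2(CPM + 1) between each WT kiEpiSC day 3 library (circles in iCD1, squares with JNKi; solid and dashed lines for replicates 1 and 2) and the mean of a stage on the x axis. Among the stages plotted, all without JNKi, both iCD1 libraries are nearest to PNT day 3 (0.586 and 0.573) and both JNKi libraries to day 2 (0.660 and 0.643), while from the kEpiSC cells with JNKi, not plotted, the JNKi libraries were at 0.632 and 0.598 for day 2 and 0.655 and 0.612 for day 3.

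Pluripotency genes were called in iCD1 about as often as all genes. Of 30 genes of the naive network, 1 was higher and 1 lower in WT kiEpiSC (6.7% called, against 6.54% of all genes). The median log2 fold change of this list was 0.52, against 0.00 over all genes, with 22 genes positive and 8 negative. Of 12 core factors 1 was higher (8.3% called). Sox2, a core factor, was at 88.1 and 99.4 CPM in WT kiEpiSC, against 40.3 and 49.1 CPM in kEpiSC cells (log2 fold change 1.12 ± 0.16, adjusted p = 0.00191). The replicates of each system lay close together and the systems did not overlap. Klf4 went the other way, with 86.1 and 45.8 CPM in WT kiEpiSC and 134 and 141 CPM in kEpiSC cells (log2 fold change -1.02 ± 0.23, adjusted p = 0.0178). Reads from the transgene and from the gene of the genome both count towards Klf4 and were not separated, and the difference did not pass with the effective length offset, in the fit to all 38 libraries or in limma on log2(TPM + 1), nor without WT kiEpiSC replicate 2 or either kEpiSC replicate.

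Pou5f1, Nanog, Esrrb and Dppa5a varied more within WT kiEpiSC than between the systems. Pou5f1, the core factor of every pluripotent state, was at 12.5 and 49.7 CPM in WT kiEpiSC and 27.3 and 17.7 CPM in kEpiSC cells, so that the kEpiSC values fell between the WT ones. Nanog, a core factor that steadies the naive state, showed 4.41 and 18.7 CPM in WT kiEpiSC and 7.06 and 4.11 CPM in kEpiSC cells. Esrrb, an orphan nuclear receptor of the naive network, showed 4.07 and 17.7 CPM and 8.90 and 5.34 CPM in the same order. Dppa5a, a marker of ground-state ESCs, was at 9.49 and 34.5 CPM in WT kiEpiSC and 10.6 and 7.40 CPM in kEpiSC cells. For each of the 4, WT kiEpiSC replicate 2 was the highest library and replicate 1 was below at least 1 of the kEpiSC libraries. Klf2, another naive factor, was at 16.9 and 21.0 CPM in WT kiEpiSC and 23.0 and 17.7 CPM in kEpiSC cells, and Zfp42, a naive marker, at 2.03 and 6.13 CPM and 2.54 and 1.44 CPM. The median of the naive list was -0.38 without WT kiEpiSC replicate 2 and 1.11 without replicate 1.

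With JNKi the naive network was higher in WT kiEpiSC. Of its 30 genes, 19 were higher and 0 lower (median log2 fold change 1.69), and of the 12 core factors 9 were higher and 0 lower. Pou5f1 was at 128 and 215 CPM in WT kiEpiSC with JNKi, against 36.9 and 78.4 CPM in kEpiSC cells with JNKi (log2 fold change 1.62 ± 0.41, adjusted p = 0.0228). Nanog was at 62.3 and 80.9 CPM, against 8.61 and 25.6 CPM (log2 fold change 2.17 ± 0.44, adjusted p = 0.00787). Tdgf1, the Nodal co-receptor Cripto, was at 20.8 and 24.2 CPM, against 1.23 and 4.27 CPM (log2 fold change 3.20 ± 0.38, adjusted p = 3.49e-04). The groups did not overlap for any of them. Zfp42 was at 30.8 and 39.0 CPM, against 8.26 and 12.5 CPM (log2 fold change 1.79 ± 0.39, adjusted p = 0.0114). Whether the system difference of these genes itself differed between iCD1 and iCD1 with JNKi was not tested. The kEpiSC libraries with JNKi were uneven. Replicate 2 was at a root mean square difference of 0.289 from the mean of the kEpiSC day 3 libraries in iCD1, and 0.471 from replicate 3. The list counts with JNKi were not repeated with 1 library left out.

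The primed list split in iCD1, with 3 of 29 genes higher and 4 lower (median 0.01). Zic2 and Zic5, zinc finger factors of the primed epiblast and neural plate, and Sox3, a SOX factor of the same tissues, were the higher ones. Zic2 was at 40.3 and 33.6 CPM in WT kiEpiSC, against 9.33 and 10.7 CPM in kEpiSC cells (log2 fold change 1.94 ± 0.25, adjusted p = 0.00113). It was at 126 and 93.9 CPM, against 10.2 and 17.1 CPM, with JNKi (log2 fold change 3.07 ± 0.23, adjusted p = 1.34e-05). Before iCD1 it was at 207 and 240.2 CPM in WT primed cells and 265 and 219.7 CPM in kEpiSC, which did not pass. The change over 3 days differed (log2 fold change 2.04 ± 0.31, adjusted p = 0.00469). Sox3 was low on day 3 in both, at 2.03 and 8.07 CPM in WT kiEpiSC and 1.13 and 0.616 CPM in kEpiSC cells (log2 fold change 2.50 ± 0.59, adjusted p = 0.0222). The lower genes were Grhl2, Krt18, Cldn6 and Sall2, of which the first 3 are epithelial.

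Genes of amino acid supply were higher in WT kiEpiSC in both media. ATF4 is the transcription factor through which cells answer a shortage of amino acids or stress of the endoplasmic reticulum, and its targets include transporters and the enzymes that make serine, asparagine and cysteine. Of 22 genes of this list, 14 were higher and 0 lower in WT kiEpiSC on day 3 in iCD1 (median 1.08), where 3.64% of all genes were higher. With JNKi 11 of 22 were higher and 0 lower (median 0.84), and in primed cells 1 was higher and 1 lower (median -0.27). The count in iCD1 was 14 with the effective length offset, 9 with all 38 libraries and 11 to 14 with 1 library left out.

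Asns, which makes asparagine, was at 251 and 191 CPM in WT kiEpiSC, against 91.4 and 92.9 CPM in kEpiSC cells (log2 fold change 1.31 ± 0.16, adjusted p = 6.41e-04). With JNKi it was at 225 and 245 CPM, against 96.4 and 124 CPM (log2 fold change 1.11 ± 0.15, adjusted p = 9.12e-04). The 2 systems were apart in both media, and in primed cells the level was 469 and 355 CPM in the WT system and 542 and 596 CPM in kEpiSC. Trib3, a pseudokinase that is a late ATF4 target, was at 13.9 and 5.49 CPM, against 1.84 and 0.822 CPM (log2 fold change 2.80 ± 0.48, adjusted p = 0.00464). Slc7a3, a transporter of cationic amino acids, was at 41.7 and 29.0 CPM, against 6.92 and 5.75 CPM (log2 fold change 2.50 ± 0.29, adjusted p = 4.53e-04). Cth, which makes cysteine, was at 59.0 and 29.0 CPM, against 11.3 and 9.25 CPM (log2 fold change 2.12 ± 0.31, adjusted p = 0.00191). For these genes the lowest WT kiEpiSC library stood above the highest kEpiSC library. Psat1 and Phgdh, enzymes of serine synthesis, showed smaller differences, with log2 fold changes of 1.15 and 1.00. The transcript of Atf4 was at 401 and 331 CPM, against 235 and 238 CPM (log2 fold change 0.68 ± 0.14, adjusted p = 0.00987), while Ddit3, a stress factor that ATF4 also induces, was at 7.12 and 5.16 CPM, against 7.35 and 9.25 CPM, and did not pass.

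The earlier days of the kEpiSC system show the course of one of these genes. Slc7a3 averaged 414 CPM in primed kEpiSC, 12.9 CPM on day 1, 4.99 CPM on day 2 and 6.34 CPM on day 3 (n = 2 each). WT kiEpiSC started from 410.2 and 419 CPM and had 41.7 and 29.0 CPM on day 3, and the change over 3 days differed between the systems (log2 fold change 2.48 ± 0.34, adjusted p = 0.00329). The promoters of Asns and Trib3 are shown because each holds a match to the element that ATF4 binds with C/EBP partners, searched as TGATGNAAN on both strands in 250 bases before and 50 after the RefSeq start site. This motif was in the window of 6 of the 19 list genes that RefSeq gave a promoter for (31.6%), in 2 of the 11 that were called with a promoter, and in 4.5% of all 27025 genes. Capitals mark the match. A match is a description of the sequence and was not tested for binding. The window of Asns (GRCm38.p6, chr6:7693160-7693459, minus strand) and that of Trib3 (chr2:152344011-152344310, minus strand) read 5′ to 3′:
Asns: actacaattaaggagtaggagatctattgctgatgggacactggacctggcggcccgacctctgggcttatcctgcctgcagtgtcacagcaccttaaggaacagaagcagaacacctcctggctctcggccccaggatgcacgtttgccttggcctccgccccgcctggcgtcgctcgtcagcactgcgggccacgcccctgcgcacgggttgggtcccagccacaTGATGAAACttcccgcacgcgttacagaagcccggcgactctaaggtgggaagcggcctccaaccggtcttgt
Trib3: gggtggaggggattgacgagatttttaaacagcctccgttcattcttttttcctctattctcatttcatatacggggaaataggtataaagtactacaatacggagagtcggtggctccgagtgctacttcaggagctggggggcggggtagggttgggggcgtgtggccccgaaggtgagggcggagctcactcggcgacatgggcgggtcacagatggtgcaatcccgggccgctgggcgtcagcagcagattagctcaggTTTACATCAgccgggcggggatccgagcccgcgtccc

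Glycolysis and the hypoxia response formed the largest group by count. Hypoxia-inducible factor drives glucose uptake, the glycolytic enzymes and the routes that divert pyruvate from mitochondria, and primed cells are known for a more glycolytic metabolism than naive ones. Of 27 tested genes of this list, 19 were higher and 0 lower in WT kiEpiSC on day 3 (median 0.74). In primed cells the order was the reverse, with 0 higher and 14 lower in the WT system (median -0.69), where 3.77% of all genes were lower. With JNKi 1 was higher and 2 lower (median -0.04). The iCD1 count of 19 rested on the library set: it was 2 without WT kiEpiSC replicate 1, 14 without replicate 2, 2 and 4 without either kEpiSC replicate, 12 with the effective length offset, 4 in limma on log2(TPM + 1) and 0 with all 38 libraries, with a median between 0.54 and 0.88 when 1 library was left out.

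Pdk1, the kinase that shuts pyruvate dehydrogenase, was at 138 and 62.6 CPM in WT kiEpiSC, against 15.7 and 30.2 CPM in kEpiSC cells (log2 fold change 2.21 ± 0.37, adjusted p = 0.00419). Bnip3, a mitophagy receptor, was at 137 and 79.4 CPM, against 14.7 and 38.8 CPM (log2 fold change 2.10 ± 0.54, adjusted p = 0.0344). Pfkp, a phosphofructokinase, was at 127 and 42.9 CPM, against 24.6 and 38.8 CPM (log2 fold change 1.48 ± 0.37, adjusted p = 0.0318). WT kiEpiSC replicate 1 was the highest of the 4 libraries for each, and the systems did not overlap. Pgk1, which makes ATP in glycolysis, was at 1756 and 1149 CPM, against 566 and 738 CPM (log2 fold change 1.20 ± 0.25, adjusted p = 0.0131). Ldha, which turns pyruvate into lactate, was at 1286 and 1119 CPM, against 736 and 857 CPM (log2 fold change 0.64 ± 0.17, adjusted p = 0.0353). In primed cells Ldha was at 1598 and 1986 CPM in the WT system and 2899 and 2958 CPM in kEpiSC (log2 fold change -0.70 ± 0.17, adjusted p = 0.0252). Ndrg1, a stress-induced target of hypoxia-inducible factor, and Ero1l, an oxidase of the endoplasmic reticulum, followed the same course, with log2 fold changes on day 3 of 1.37 and 1.28 and in primed cells of -1.20 and -1.55. Other members did not pass on day 3: Egln3, a prolyl hydroxylase that destabilizes hypoxia-inducible factor, was at 11.2 and 17.7 CPM in WT kiEpiSC and 16.8 and 19.11 CPM in kEpiSC cells, and Ankrd37 at 2.03 and 3.55 CPM and 2.83 and 2.67 CPM.

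The core of the hypoxia response element, ACGTG, was searched on both strands in the same promoter windows, and CACGTG counts as a match on either strand. It was in the window of 19 of 25 list genes with a RefSeq promoter (76.0%), in 13 of the 17 of these that were called, and in 21.8% of all 27025 genes. The windows of Pgk1 (GRCm38.p6, chrX:106186850-106187149, plus strand) and Ldha (chr7:46845554-46845853, plus strand) are shown because each holds more than 1 match, in capitals:
Pgk1: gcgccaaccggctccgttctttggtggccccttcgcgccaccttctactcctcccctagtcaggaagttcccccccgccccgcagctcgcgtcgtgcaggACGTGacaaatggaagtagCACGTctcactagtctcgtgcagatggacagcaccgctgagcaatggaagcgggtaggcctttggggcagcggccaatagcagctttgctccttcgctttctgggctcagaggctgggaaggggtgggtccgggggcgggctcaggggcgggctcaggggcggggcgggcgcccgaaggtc
Ldha: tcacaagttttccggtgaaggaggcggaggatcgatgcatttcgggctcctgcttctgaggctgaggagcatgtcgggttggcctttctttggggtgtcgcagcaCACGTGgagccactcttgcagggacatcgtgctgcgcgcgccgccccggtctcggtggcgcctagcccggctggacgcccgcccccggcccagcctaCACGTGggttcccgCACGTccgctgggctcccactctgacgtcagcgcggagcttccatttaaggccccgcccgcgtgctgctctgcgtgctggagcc

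Cholesterol synthesis was higher in WT kiEpiSC as well. SREBP2, the product of Srebf2, switches on the enzymes of this pathway when sterols run low. Of 24 genes, 18 were higher and 0 lower on day 3 in iCD1 (median 0.80). With JNKi 0 were higher and 1 lower (median 0.02), and in primed cells 0 and 1 (median 0.15). Cyp51, a demethylase of lanosterol, was at 443 and 333 CPM in WT kiEpiSC, against 192 and 191 CPM in kEpiSC cells (log2 fold change 1.06 ± 0.21, adjusted p = 0.00827). Srebf2 was at 609 and 568 CPM, against 378 and 367 CPM (log2 fold change 0.71 ± 0.11, adjusted p = 0.00280). The systems did not overlap for either of them. The count of 18 was 2 to 11 with 1 library left out, 12 with the effective length offset, 5 in limma on log2(TPM + 1) and 4 with all 38 libraries.

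Of 33 nuclear-encoded respiratory chain subunits, 8 were higher and 0 lower (median 0.36), and 1 to 3 were higher with 1 library left out. Most of these transcripts are short, and short genes as a class were higher in the WT kiEpiSC libraries. The part of transcript length in this result was not tested, as the effective length offset only rescales the counts. With that offset 4 subunits were higher with a median of 0.31, and 1 was higher in limma on log2(TPM + 1) with a median of 0.18.

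**Figure D3:**
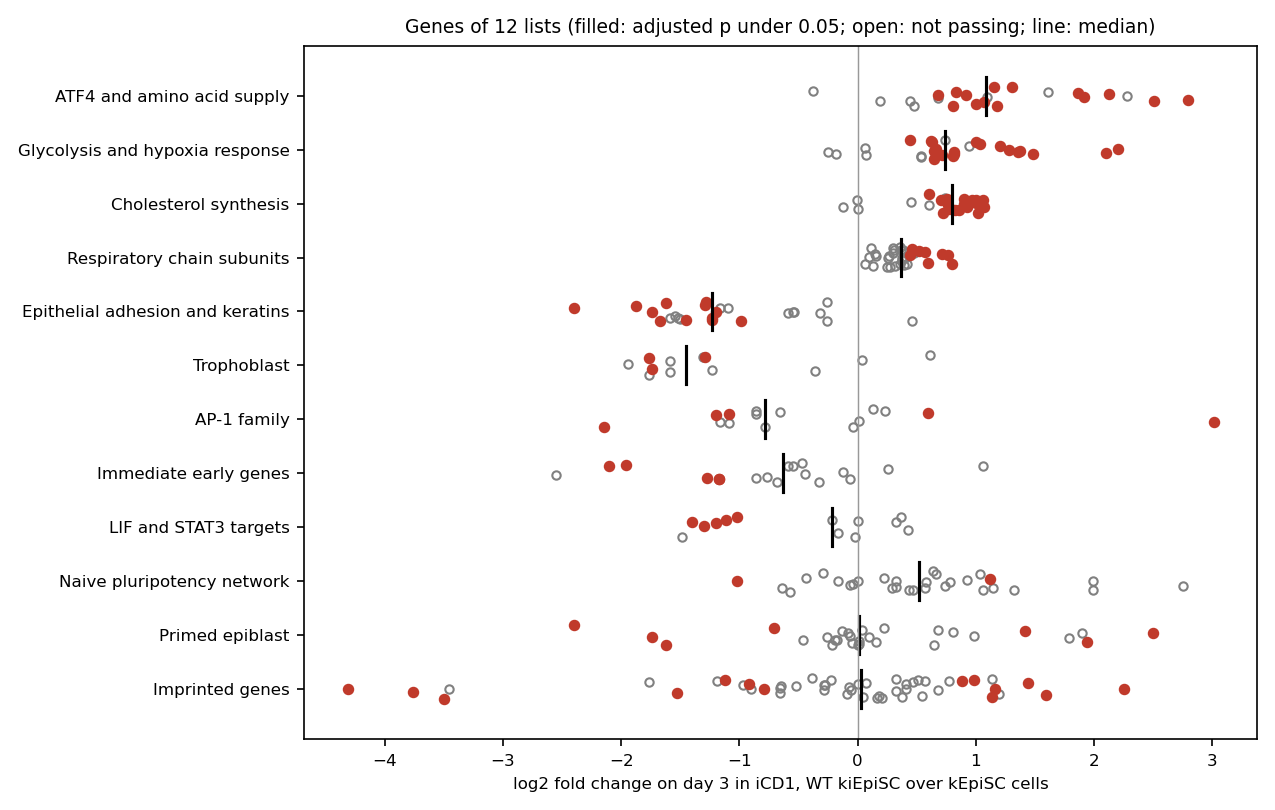
Each point is a tested gene of 1 of 12 lists, at its log2 fold change on day 3 in iCD1 (x axis, WT kiEpiSC over kEpiSC cells); filled points passed at an adjusted p under 0.05 and the black line is the median of the list. The filled points of amino acid supply (14 of 22), glycolysis (19 of 27) and cholesterol synthesis (18 of 24) all lie above 0, and those of the epithelial list (12 of 25) all lie below it.

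Epithelial genes were lower in WT kiEpiSC. Of 25 tested genes of epithelial adhesion and keratins, 12 were lower and 0 higher on day 3 (median -1.24), where 2.9% of all genes were lower. With JNKi 12 were lower and 0 higher (median -1.02), and in primed cells 7 were lower and 0 higher (median -0.57). Cdh1, the gene of E-cadherin, was at 34.6 and 52.6 CPM in WT kiEpiSC, against 138 and 107 CPM in kEpiSC cells (log2 fold change -1.45 ± 0.24, adjusted p = 0.00336), while the primed cells of the WT system had 463 and 443 CPM and kEpiSC had 736 and 710.4 CPM. Epcam, an adhesion molecule of epithelia, was at 22.0 and 38.1 CPM, against 87.5 and 63.7 CPM (log2 fold change -1.29 ± 0.26, adjusted p = 0.0112). Grhl2, a transcription factor that maintains epithelial identity, was at 2.03 and 4.52 CPM, against 22.7 and 12.7 CPM (log2 fold change -2.40 ± 0.37, adjusted p = 0.00280). The change of Cdh1 over 3 days did not differ at the threshold (log2 fold change -0.80 ± 0.31, adjusted p = 0.188). With JNKi Cdh1 did not pass, with 91.7 and 146 CPM in WT kiEpiSC and 162 and 123 CPM in kEpiSC cells.

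Keratins 8 and 18 and Cldn4, which belong to simple epithelium, were lower in both media. Krt18 was at 21.0 and 30.0 CPM in WT kiEpiSC, against 95.5 and 80.8 CPM in kEpiSC cells (log2 fold change -1.74 ± 0.31, adjusted p = 0.00490). Krt8, its partner, was at 38.3 and 47.1 CPM, against 122 and 94.1 CPM (log2 fold change -1.29 ± 0.28, adjusted p = 0.0140). Cldn4, a tight junction protein, was at 34.2 and 40.7 CPM, against 143 and 104 CPM (log2 fold change -1.67 ± 0.29, adjusted p = 0.00462). Krt5, a keratin of stratified epithelium, had no count in any primed library and on day 3 was at 1.69 and 1.94 CPM in WT kiEpiSC, against 15.3 and 14.4 CPM in kEpiSC cells (log2 fold change -2.97 ± 0.45, adjusted p = 0.00280). Of 12 tested trophoblast genes 3 were lower and 0 higher (median -1.45), namely Gata3, Krt18 and Krt8. Gata3, a factor of trophectoderm and surface ectoderm, was at 6.78 and 7.10 CPM in WT kiEpiSC, against 26.0 and 22.6 CPM in kEpiSC cells (log2 fold change -1.76 ± 0.31, adjusted p = 0.00493). With JNKi it was at 0.346 and 1.30 CPM, against 20.4 and 28.0 CPM (log2 fold change -4.72 ± 0.44, adjusted p = 6.88e-05). Plet1, a surface protein of placental and epithelial progenitors, was at 1.36 and 2.26 CPM, against 13.4 and 14.2 CPM (log2 fold change -2.86 ± 0.41, adjusted p = 0.00187). Tbx2, a T-box repressor, was at 1.36 and 2.58 CPM, against 32.8 and 17.3 CPM (log2 fold change -3.61 ± 0.51, adjusted p = 0.00187). The epithelial count of 12 was 4 without WT kiEpiSC replicate 1, 4 without kEpiSC replicate 1 and 2 with all 38 libraries.

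Mesenchymal genes did not move the other way as a group: of 20, 2 were higher and 4 lower (median -0.20), and 1 was higher and 1 to 2 lower with 1 library left out. Twist1, a factor of mesenchyme, was at 76.9 and 62.3 CPM in WT kiEpiSC, against 27.8 and 31.8 CPM in kEpiSC cells (log2 fold change 1.27 ± 0.19, adjusted p = 0.00235). It was also higher in primed cells, at 27.8 and 27.1 CPM, against 3.81 and 5.68 CPM (log2 fold change 2.55 ± 0.23, adjusted p = 2.96e-05). Cdh11, a cadherin of mesenchyme, was at 15.9 and 17.4 CPM, against 7.06 and 6.78 CPM (log2 fold change 1.31 ± 0.29, adjusted p = 0.0160). Sparc, a secreted matrix protein, and Mmp2, a gelatinase, were lower, with log2 fold changes of -1.48 and -1.45. Among 26 collagen and basement membrane genes 5 were higher and 2 lower, led by Col11a1 and Col3a1, the last at 103 and 159 CPM in WT kiEpiSC, against 54.7 and 55.9 CPM in kEpiSC cells (log2 fold change 1.29 ± 0.21, adjusted p = 0.00326). Of 15 tested markers of feeder cells and fibroblasts, 3 were higher (Col3a1, Twist1 and Col5a1) and 1 lower (Thy1), and their summed level was 541 and 540.4 CPM in WT kiEpiSC and 420.2 and 423 CPM in kEpiSC cells. Dcn, a defining fibroblast marker, had no count in either WT kiEpiSC library and 0.283 and 0 CPM in kEpiSC cells, and Postn, another, was at 0.339 and 0.645 CPM and 2.26 and 0.205 CPM.

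AP-1 genes differed between the systems in primed cells and, at fewer genes, on day 3. In primed cells 8 of 15 tested AP-1 genes were higher and 0 lower in the WT system (median 1.09, where 2.56% of all genes were higher). On day 3 in iCD1 2 were higher, Jdp2 and Bach1, and 3 lower, Fosl2, Junb and Fos (median -0.78). Of the 8 genes higher in primed cells, Fos and Junb were thus lower on day 3 and the other 6 did not pass. With 1 library left out 1 to 4 were lower on day 3, with 1 lower without WT kiEpiSC replicate 2 or kEpiSC replicate 2, and with all 38 libraries 0 were lower. With JNKi 1 was higher and 6 lower (median -0.67). Fos was at 772 and 544 CPM in WT primed cells, against 4.14 and 5.54 CPM in kEpiSC (log2 fold change 7.08 ± 0.32, adjusted p = 3.01e-08). On day 3 it was at 284 and 184 CPM in WT kiEpiSC, against 431 and 595 CPM in kEpiSC cells (log2 fold change -1.09 ± 0.24, adjusted p = 0.0172). Fos was thus near 0 in primed kEpiSC and above the WT level on day 3, and the change over 3 days differed (log2 fold change -8.17 ± 0.40, adjusted p = 9.76e-08). Fosb took the same course, with 463 and 429 CPM in WT primed cells, against 0.197 and 0.334 CPM in kEpiSC (log2 fold change 10.63 ± 0.86, adjusted p = 1.15e-05), but its day 3 values of 291 and 70.7 CPM in WT kiEpiSC and 347 and 491 CPM in kEpiSC cells did not pass.

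Jun, which encodes c-Jun, was at 412 and 253 CPM in WT primed cells, against 55.6 and 69.3 CPM in kEpiSC (log2 fold change 2.39 ± 0.36, adjusted p = 0.00162). On day 3 in iCD1 it was at 242 and 112 CPM in WT kiEpiSC and 261 and 366 CPM in kEpiSC cells (log2 fold change -0.78 ± 0.35, adjusted p = 0.199), where the groups did not overlap but the spread within WT kiEpiSC was wide and the test was not passed. With JNKi it was at 71.3 and 66.3 CPM in WT kiEpiSC, against 445 and 192 CPM in kEpiSC cells (log2 fold change -2.20 ± 0.37, adjusted p = 0.00292). The level on day 3 was below that of primed cells in the WT system and above it in the kEpiSC system, and this change differed (log2 fold change -3.17 ± 0.50, adjusted p = 0.00518). Junb, a JUN partner of weaker activity, was at 62.3 and 65.8 CPM in WT kiEpiSC, against 136 and 168 CPM in kEpiSC cells on day 3 (log2 fold change -1.20 ± 0.23, adjusted p = 0.00775), and Jund was at 254 and 210.0 CPM and 361 and 397 CPM, which did not pass. Fosl2, a FOS relative without a strong activation domain, was at 6.44 and 5.49 CPM, against 26.7 and 27.9 CPM (log2 fold change -2.15 ± 0.27, adjusted p = 0.00101).

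The AP-1 genes that were higher on day 3 were Jdp2 and Bach1. Jdp2, which dimerizes with c-Jun and represses AP-1 sites, was at 18.0 and 10.6 CPM in WT kiEpiSC, against 2.40 and 1.03 CPM in kEpiSC cells (log2 fold change 3.01 ± 0.39, adjusted p = 0.00113). Bach1, a repressor of the CNC family, was at 116 and 125 CPM, against 78.6 and 86.5 CPM (log2 fold change 0.59 ± 0.12, adjusted p = 0.0128). Jdp2 had been at 14.3 and 10.1 CPM in WT primed cells and 13.9 and 14.2 CPM in kEpiSC, and its change over 3 days differed (log2 fold change 3.22 ± 0.50, adjusted p = 0.00514). Atf3 was at 33.9 and 14.2 CPM in WT kiEpiSC and 39.8 and 66.2 CPM in kEpiSC cells, Fosl1 at 2.37 and 0.645 CPM and 3.11 and 2.47 CPM, Maff at 18.0 and 11.6 CPM and 10.2 and 16.2 CPM, Mafk at 16.9 and 10.6 CPM and 21.2 and 31.0 CPM, and Bach2 at 18.0 and 16.8 CPM and 17.8 and 14.8 CPM, none of which passed. None of 9 tested genes of the JNK pathway (kinases, scaffolds and phosphatases) differed in any of the 4 comparisons by edgeR (0 higher and 0 lower), with 1 of them at an unadjusted p under 0.05 on day 3 in iCD1 and 0 called by DESeq2. Mapk8 and Mapk9, the genes of JNK1 and JNK2, were at 111 and 85.8 and 42.7 and 50.0 CPM in WT kiEpiSC and 100.3 and 97.8 and 48.9 and 51.0 CPM in kEpiSC cells.

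Of 18 immediate early genes, which answer growth factor signals within minutes and without new protein, 5 were lower and 0 higher on day 3 in iCD1 (median -0.63), 7 lower and 0 higher with JNKi, and 6 higher and 2 lower in primed cells. The iCD1 count of 5 was 2 to 4 with 1 library left out and 1 with all 38 libraries. Egr1, a zinc finger factor downstream of ERK and SRF, was at 150.1 and 174 CPM in WT kiEpiSC, against 331 and 425 CPM in kEpiSC cells (log2 fold change -1.18 ± 0.16, adjusted p = 0.00153). It was at 1028 and 562 CPM in WT primed cells, against 51.9 and 68.1 CPM in kEpiSC (log2 fold change 3.69 ± 0.17, adjusted p = 3.01e-08). Zfp36, which destabilizes mRNAs with AU-rich elements, was at 24.4 and 19.04 CPM, against 79.4 and 95.3 CPM (log2 fold change -1.96 ± 0.26, adjusted p = 0.00113). Both were lower with JNKi too, with log2 fold changes of -1.0 and -2.35.

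**Figure D4:**
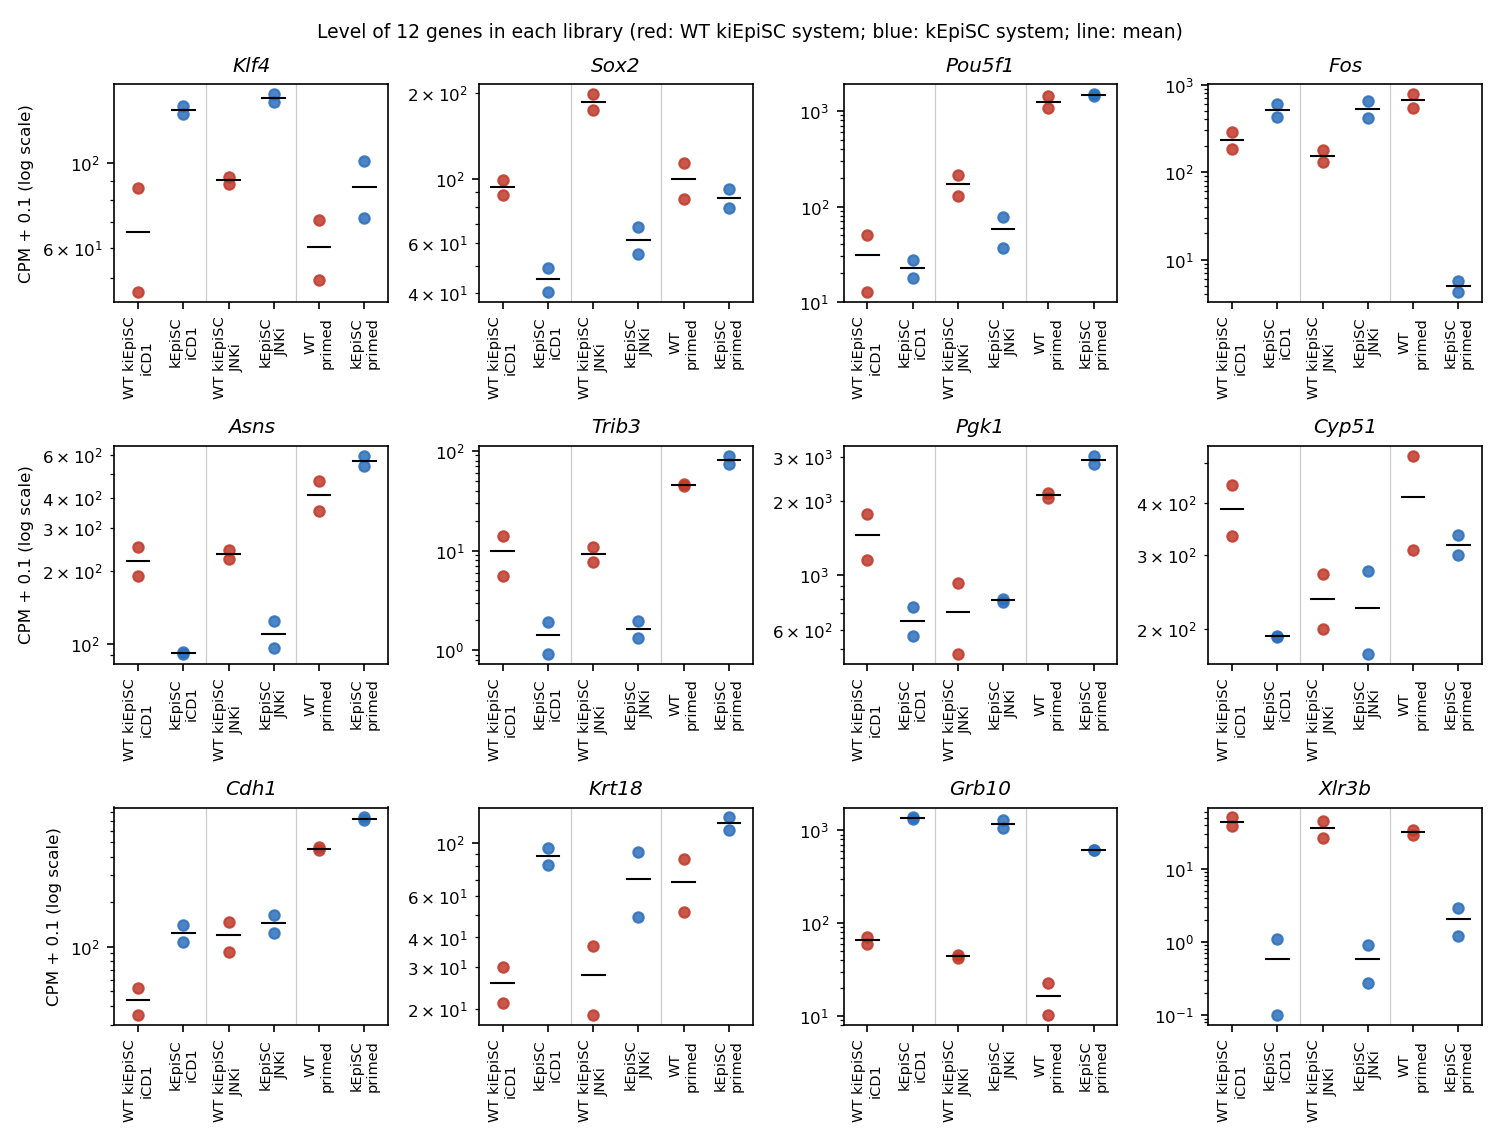
CPM plus 0.1 on a log axis for 12 genes in each library, with the WT kiEpiSC system in red, the kEpiSC system in blue and a line at the mean of the 2 libraries of a group; from left to right, day 3 in iCD1, day 3 with JNKi and primed cells. Fos is lowest in primed kEpiSC (4.14 and 5.54 CPM), while Grb10 and Xlr3b keep the same order of the systems in all 3 states.

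LIF and STAT3 targets were lower where they differed on day 3 in iCD1. There 5 of 13 were lower and 0 higher (38.5% called, against 6.54% of all genes, median -0.22), namely Bcl3, Socs2, Junb, Socs3 and Klf4. The counts of Klf4 include reads from the transgene. With the effective length offset or by limma on log2(TPM + 1) 2 were lower, and with all 38 libraries 0. The median lay between -0.46 and -0.15 with 1 library left out. With JNKi 1 was higher, Tfcp2l1, and 1 lower, Junb (median -0.14). Socs3, the feedback inhibitor of the LIF receptor, was at 27.8 and 26.5 CPM in WT kiEpiSC, against 59.8 and 61.6 CPM in kEpiSC cells (log2 fold change -1.11 ± 0.25, adjusted p = 0.0161). Bcl3, a nuclear partner of NF-kB, was at 5.76 and 5.16 CPM, against 15.1 and 14.8 CPM (log2 fold change -1.41 ± 0.31, adjusted p = 0.0170). Stat3 itself was nearly equal, at 104 and 106 CPM and 109 and 107 CPM.

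In the WNT, Nodal and BMP lists every called gene was lower in WT kiEpiSC on day 3 in iCD1, but not in the other comparisons. With JNKi the WNT list had 4 higher and 3 lower, the Nodal list 2 and 3, and the BMP list 0 and 6. In primed cells the list medians were 0.08, 0.40 and 0.17 in the same order. In iCD1, of 18 tested WNT feedback and target genes 2 were lower, Cdx1 and Notum, and 0 higher (11.1% called, against 6.54% of all genes). Cdx1, a posterior homeobox gene, was at 12.9 and 20.3 CPM in WT kiEpiSC, against 94.7 and 81.6 CPM in kEpiSC cells (log2 fold change -2.36 ± 0.25, adjusted p = 2.62e-04). Notum, a secreted inhibitor of WNT ligands, was at 76.2 and 52.6 CPM, against 157 and 163 CPM (log2 fold change -1.27 ± 0.24, adjusted p = 0.00703). Cdx1 had at most 0.131 CPM and Notum at most 0.652 CPM in the primed libraries of the systems. Of 16 Nodal and Activin targets 3 were lower, Lefty2 and Id1 among them (18.8% called). Of 15 BMP targets 2 were lower, Id1 and Bmp4 (13.3% called). Lefty2, an inhibitor of Nodal, was at 3.05 and 5.49 CPM, against 25.4 and 21.8 CPM (log2 fold change -2.41 ± 0.45, adjusted p = 0.00646). Bmp4, a ligand, was at 9.49 and 6.45 CPM, against 15.7 and 19.9 CPM (log2 fold change -1.11 ± 0.29, adjusted p = 0.0368). These counts were 0 to 2 with 1 library left out.

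Genes of the posterior embryo were present in both systems on day 3. T, the factor Brachyury of the primitive streak, was at 124 and 97.4 CPM in WT kiEpiSC and 102 and 126 CPM in kEpiSC cells, and Cdx2, a factor of tail bud and trophectoderm, at 91.5 and 72.6 CPM and 56.0 and 54.9 CPM, neither passing. Of 30 tested Hox genes 2 were lower, Hoxb6 and Hoxb8, and 0 higher, a share near that of all genes (6.7% called, against 6.54%). By limma on log2(TPM + 1), with the effective length offset or with all 38 libraries, 0 Hox genes were called. With JNKi 10 were lower and 1 higher (36.7% called, against 10.9% of all genes). Of 19 genes of presomitic mesoderm and the Notch clock 2 were higher in iCD1, Tcf15 and Notch1 (10.5% called). With the effective length offset or all 38 libraries 0 of them were higher. With JNKi 10 were higher and 0 lower (52.6% called, median 0.92). Dll3, a Notch ligand of the segmentation clock, was at 81.7 and 49.4 CPM in WT kiEpiSC with JNKi, against 19.9 and 16.8 CPM in kEpiSC cells with JNKi (log2 fold change 1.83 ± 0.30, adjusted p = 0.00261). In iCD1 it was at 35.9 and 22.3 CPM and 22.9 and 15.2 CPM, which did not pass. Of 12 tested neural ectoderm genes 2 were higher in iCD1, Pax6 and Zic1, and 0 lower (16.7% called). With all 38 libraries 0 were higher. The list as a whole did not lean that way, with 5 genes positive and 7 negative (median -0.08). Pax6, a neural and eye factor, was at 17.3 and 21.6 CPM in WT kiEpiSC, against 4.95 and 4.93 CPM in kEpiSC cells (log2 fold change 2.02 ± 0.32, adjusted p = 0.00317). It had been at 9.99 and 16.3 CPM in WT primed cells, against 0.0657 and 0.0668 CPM in kEpiSC, where 78 counts stood against 2 (a ratio of 200.5, with a 95% counting interval from 53.7 to 1685). Zic1, a relative of Zic2 in neural plate and somites, was at 23.0 and 23.9 CPM, against 4.66 and 10.9 CPM (log2 fold change 1.69 ± 0.39, adjusted p = 0.0198).

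Some of the largest differences were present in every state of the cells. Grb10, an imprinted adaptor that restrains insulin and growth factor signals, was at 60.0 and 70.7 CPM in WT kiEpiSC, against 1310.5 and 1379 CPM in kEpiSC cells (log2 fold change -4.32 ± 0.14, adjusted p = 8.72e-10). It was also lower with JNKi, at 42.2 and 45.5 CPM, against 1292 and 1070.0 CPM (log2 fold change -4.73 ± 0.14, adjusted p = 3.82e-10). In primed cells it was at 22.8 and 10.1 CPM, against 607 and 619 CPM (log2 fold change -5.31 ± 0.16, adjusted p = 3.67e-10). Among the other lines of the series, Grb10 was at 40.9 to 123 CPM in the 5 ESC libraries, and at 41.0 CPM in EpiSC replicate 1 and 606 to 784 CPM in the other 3 EpiSC libraries. Kdm5d, a histone demethylase on the Y chromosome, was at 1.36 and 0.968 CPM in WT kiEpiSC, against 58.6 and 78.3 CPM in kEpiSC cells (log2 fold change -5.81 ± 0.38, adjusted p = 3.02e-06), and at most 2.05 CPM in EpiSC, 3.65 CPM in ESC and 5.28 CPM in kiPSC, the naive cells that PNT yields. Eif2s3y, a Y-linked translation initiation factor, was at 25.1 and 21.0 CPM, against 83.5 and 92.9 CPM (log2 fold change -1.89 ± 0.16, adjusted p = 6.00e-05), whereas Ddx3y and Uty did not pass, with 54.2 and 47.4 and 22.4 and 17.7 CPM in WT kiEpiSC and 59.9 and 77.1 and 32.2 and 30.2 CPM in kEpiSC cells. Xist, the RNA of the inactive X, was at 0 and 0.645 CPM and 1.55 and 1.44 CPM. Both systems thus expressed Y-linked genes and hardly any Xist, while 3 of the 4 EpiSC libraries of the series had 1689 to 2072 CPM of Xist and at most 2.53 CPM of Ddx3y.

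Xlr3b, a gene of an X-linked cluster with allele-specific expression in mouse brain, was the called gene with the largest rise that met the naming rule. It was at 50.1 and 37.8 CPM in WT kiEpiSC, against 0.989 and 0 CPM in kEpiSC cells (log2 fold change 6.24 ± 0.60, adjusted p = 1.39e-04). With JNKi it was at 45.4 and 26.5 CPM, against 0.176 and 0.800 CPM (log2 fold change 6.33 ± 0.67, adjusted p = 1.44e-04). In primed cells it was at 28.9 and 33.6 CPM, against 1.12 and 2.80 CPM (log2 fold change 4.0 ± 0.44, adjusted p = 1.82e-04). It was at 41.2 to 108 CPM in ESC and 0 to 7.37 CPM in EpiSC libraries. The copies of this cluster are near-identical, and counts split between them are uncertain. Cdkn2a, which encodes the cell cycle inhibitors p16 and p19, was at 18.0 and 35.8 CPM in WT kiEpiSC, against 0.706 and 0.411 CPM in kEpiSC cells (log2 fold change 5.53 ± 0.53, adjusted p = 1.39e-04). Before iCD1 it was at 4.64 and 4.56 CPM in WT primed cells and 2.63 and 1.27 CPM in kEpiSC, which did not pass, and its change over 3 days differed (log2 fold change 4.28 ± 0.75, adjusted p = 0.0101). Irx2, an Iroquois homeobox gene, was at 24.1 and 21.6 CPM, against 1.70 and 1.44 CPM (log2 fold change 3.88 ± 0.34, adjusted p = 6.40e-05). Tmem132c, a membrane protein, was at 31.5 and 31.6 CPM, against 6.50 and 2.88 CPM (log2 fold change 2.74 ± 0.33, adjusted p = 0.00101). Car13, a carbonic anhydrase, Cthrc1, a secreted collagen repeat protein, and Fut9, the fucosyltransferase that makes the SSEA-1 epitope of mouse ESCs, had log2 fold changes of 2.82, 3.12 and 2.47. On the lower side Asb4, a subunit of a ubiquitin ligase, was at 3.05 and 4.52 CPM in WT kiEpiSC, against 29.7 and 36.0 CPM in kEpiSC cells (log2 fold change -3.05 ± 0.32, adjusted p = 2.35e-04). Col26a1, a collagen, was at 6.78 and 2.90 CPM, against 49.2 and 46.2 CPM (log2 fold change -3.26 ± 0.39, adjusted p = 7.11e-04).

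Imprinted genes were called more often than all genes on day 3 in iCD1, in both directions. Of 50 tested, 7 were higher and 7 lower there (28.0% called, against 6.54% of all genes, median 0.03). The higher ones were Impact, Peg12, Zdbf2, Ndn, Snrpn, Snhg14 and Mcts2, and the lower ones Grb10, Nnat, Zim1, H19, Phlda2, Meg3 and H13. With JNKi 10 were higher and 9 lower, and in primed cells 9 were higher and 11 lower. Impact, a regulator of the GCN2 kinase that is expressed from the paternal allele in mouse, was at 266 and 252 CPM in WT kiEpiSC, against 54.0 and 58.4 CPM in kEpiSC cells (log2 fold change 2.25 ± 0.13, adjusted p = 8.45e-07). It was at 369 and 278 CPM in WT primed cells, against 52.9 and 51.6 CPM in kEpiSC (log2 fold change 2.64 ± 0.13, adjusted p = 4.08e-08). Zdbf2, also paternally expressed, had log2 fold changes of 1.44 in iCD1, 0.75 with JNKi and 1.20 in primed cells, and Snrpn, a spliceosome protein of the Prader-Willi region, of 1.14, 1.28 and 0.84. Ndn and Peg12, neighbours of Snrpn, were higher on day 3 too (1.16 and 1.60). H19, a maternally expressed RNA, was lower, at 355 and 269 CPM in WT kiEpiSC, against 789.6 and 1073 CPM in kEpiSC cells (log2 fold change -1.53 ± 0.25, adjusted p = 0.00353). Meg3, a maternally expressed RNA of another cluster, was at 397 and 271 CPM, against 683 and 623 CPM (log2 fold change -0.92 ± 0.20, adjusted p = 0.0138). Igf2, the growth factor next to H19, was at 2929 and 2907 CPM and 3921 and 3970.3 CPM and did not pass. Of the called genes with a parental allele given here, Impact and Zdbf2 (paternal) were higher and H19 and Meg3 (maternal) were lower. Whether the direction followed the parental allele over the whole list was not tested. The counts do not separate the 2 alleles.

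**Figure D5:**
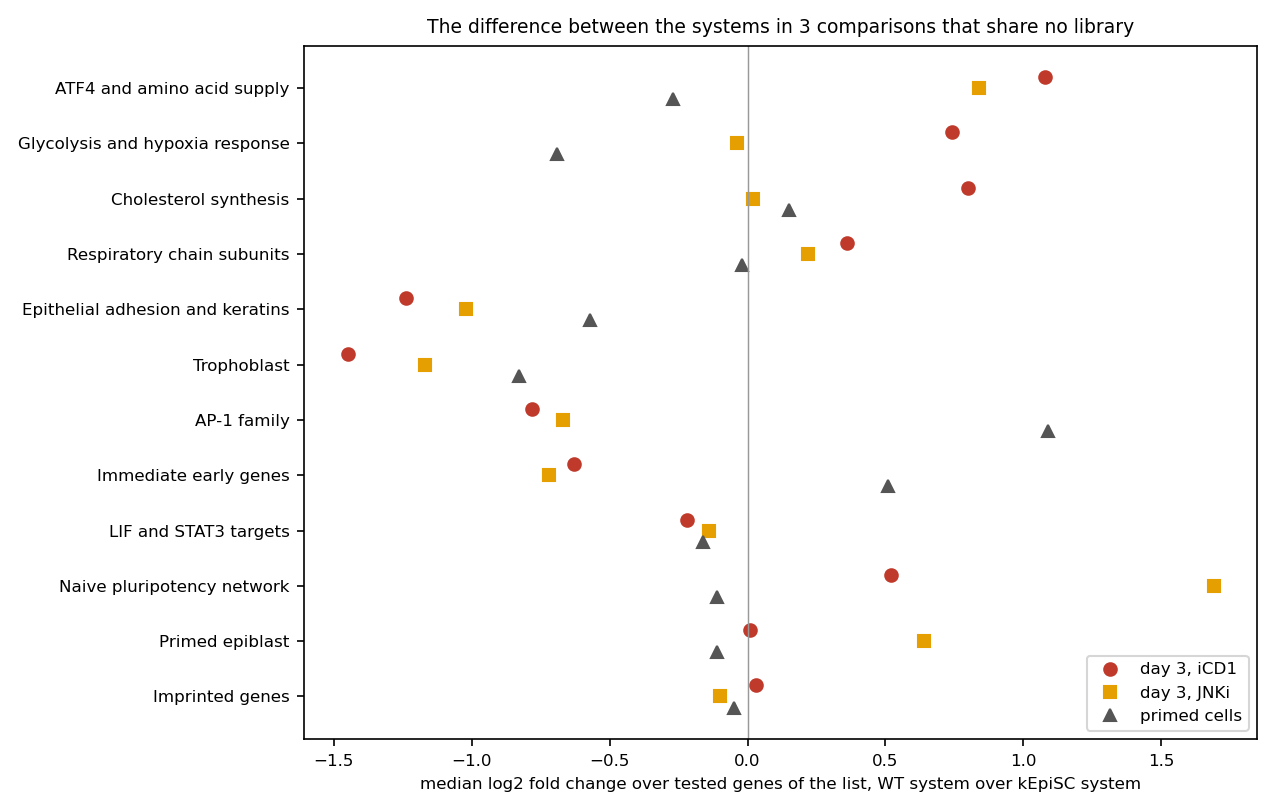
The x axis gives the median log2 fold change (WT system over kEpiSC system) over the tested genes of 12 lists on day 3 in iCD1 (circles), on day 3 with JNKi (squares) and in primed cells (triangles). The 3 contrasts have no library in common but come from the same fit. Amino acid supply lies at 1.08 and 0.84 on day 3 and at -0.27 in primed cells, the epithelial list lies below 0 in all 3, and glycolysis lies at 0.74 in iCD1 and -0.69 in primed cells.

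Before iCD1 the systems differed at 851 genes (6.34%), 344 higher (2.56%) and 507 lower (3.77%) in the WT system, by the mean of its 2 single libraries (median log2 fold change of all genes -0.06). Of the 878 genes called on day 3, 125 had been called in the same direction in primed cells (14.2% of the day 3 genes and 14.7% of the primed ones), and 64.6% had the same sign, against 54.8% of all genes. With WT-kiEpiSC as the sole WT library the primed count was 331. The library labelled WT-iEpiSC, whose label names no Klf4, held 49.2 CPM of Klf4, against 71.0 CPM in the one labelled WT-kiEpiSC and 0.921 to 2.39 CPM in the 4 EpiSC libraries. Lefty1, a Nodal inhibitor, was at 968 and 897 CPM in WT primed cells, against 115 and 47.4 CPM in kEpiSC (log2 fold change 3.54 ± 0.34, adjusted p = 7.24e-05). Aplnr, the apelin receptor of nascent mesoderm, was at 0 and 1.96 CPM, against 13.5 and 10.9 CPM (log2 fold change -5.89 ± 0.90, adjusted p = 0.00185).

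The change over 3 days differed between the systems at 370 genes (2.75%), 214 with a larger rise or smaller fall (1.59%) and 156 with a smaller rise or larger fall (1.16%) in the WT system (median of all genes 0.07). This test shares its libraries with those of day 3 and of primed cells. The count of 370 was 125 by limma on log2(TPM + 1) and 19 with all 38 libraries in the fit. The list counts of this contrast were not repeated under these settings. By list, 20 of 27 glycolysis genes were in the first class and 0 in the second, as were 13 and 0 of 22 amino acid supply genes, against 1 and 8 of 15 AP-1 genes and 0 and 8 of 18 immediate early genes. Stc2, a secreted glycoprotein induced by ATF4 and hypoxia, was at 38.2 and 33.6 CPM in primed cells and 21.3 and 16.1 CPM on day 3 in the WT system, against 82.4 and 77.0 CPM in primed cells and 3.82 and 4.32 CPM on day 3 in the kEpiSC system (log2 fold change 3.39 ± 0.36, adjusted p = 5.47e-04). Twist1 gave the reverse case, a gene higher in the WT system at both times whose difference was smaller on day 3 (log2 fold change -1.28 ± 0.29, adjusted p = 0.0354).

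Some lists had 0 or 1 call on day 3. By edgeR 0 of 18 mitotic genes of G2/M, 0 of 16 tested interferon and antiviral genes and 0 of 4 tested germline genes passed. At an unadjusted p under 0.05 there were 3, 3 and 0 of them, and DESeq2 called 0, 0 and 0. Of 20 DNA replication genes 1 was higher, and of 14 genes of DNA methylation 1 was lower. The p53 targets differed more often, with 4 of 16 higher and 2 lower (median 0.25), of which at most 1 in each direction passed with 1 library left out.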

How the data were processed

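RNA-seq was done on all 38 libraries, and 1 table per library was used, each with 29267 genes. The deposited tables hold expected counts per gene, which the authors estimated with RSEM after Bowtie2 alignment to mm10 (bcl2fastq before it, per the submitters' processing notes, with versions not given in the sources used here). The authors also gave TPM and FPKM values, gene length and effective length in the same tables. TPM entered 1 alternative, and the deposited FPKM values were not used. Per the study's methods, reads of low mapping quality, reads without a unique position and mitochondrial reads had been removed, and which of these steps was applied to RNA-seq is not certain.

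Expected counts were rounded to whole numbers, and genes with too few counts were left out (filterByExpr, minimum count 10), which left 13432. The 12 libraries of 7 groups were fitted with edgeR 4.0.16 in R 4.3.3 (TMM factors, glmQLFit and glmQLFTest, residual degrees of freedom 5, dispersion as a biological coefficient of variation of 0.121), with Benjamini-Hochberg adjustment over all genes and a threshold of 0.05. Totals were 2821040 to 15944950 counts per library, and standard errors derive from the F statistic. A count of 0 allows up to 3 counts, and intervals cover counting error only. Contrasts were the WT system minus the kEpiSC system on day 3 in iCD1, on day 3 with JNKi, in primed cells, and in the change between primed cells and day 3. The fit was tested on simulated counts. Gene positions and symbols came from GENCODE M21, and promoters from RefSeq (GRCm38.p6, the mm10 build).

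The libraries and the 40 gene lists were chosen with earlier results of these data known. The rule for named genes took in Klf4, Jun, the pluripotency factors and AP-1 and JNK genes whatever their values, up to 6 called members of each list with the largest change, members that did not pass where a count is discussed, and the 12 called genes with the largest change in each direction whose groups do not overlap and whose higher group has at least 10 CPM, clone-type names and pseudogenes left out. Not every gene that met the rule is named, and the choice among them was made with values known. Atf4, Psat1, Phgdh, Pgk1, Ldha, Srebf2, Meg3, Ndn, Zdbf2 and Snrpn (day 3) and Ndrg1 (primed cells) fall outside this rule and were picked with their values in view. Other settings tried were DESeq2 1.42.0 and its size factors, limma 3.58.1 on log2(TPM + 1), no filter or a stricter one, other library sets, an offset for effective length, thinned counts, a replicate block and each library left out.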

Additional observations from a re-analysis of the deposited data

Results flagged for a closer look

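The change between primed cells and day 3 differed between the systems at 370 genes by the interaction contrast of edgeR's quasi-likelihood test at an adjusted p under 0.05. The genes named with this contrast are given again with their log2 difference in change, WT system minus kEpiSC system. It was positive for Cdkn2a (4.28), Stc2 (3.39), Jdp2 (3.22), Slc7a3 (2.48) and Zic2 (2.04), and negative for Fos (-8.17), Jun (-3.17) and Twist1 (-1.28). The WT primed libraries are 1 of WT-iEpiSC and 1 of WT-kiEpiSC, and each contrast takes their mean. The spread between these libraries did not enter the test.

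Among the lines used for reference, EpiSC replicate 1 stood apart from the other 3 EpiSC libraries by Dixon's criterion in Ddx3y (34.6 CPM) and in Xlr3b (7.37 CPM). Chance flags about 1 in 20 groups. Over genes, replicate 1 also differed more from the other 3, with chi-square values per degree of freedom of 13.79 to 17.08. Among those 3 the values were 4.06 to 6.34. No EpiSC library entered the comparisons.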

How the results depend on the processing

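The 4 counts of genes moved by over 1.5 times under these alternatives, and where no value shows the cause it was not tested. Without a filter on low counts, which tests more genes, 1623 differed on day 3 in iCD1, 1604 in primed cells and 1051 in the change over 3 days. Limma on log2(TPM + 1) gave 969 with JNKi, 405 in primed cells and 125 in the change. With all 38 libraries in the fit the counts were 150 in iCD1, 231 with JNKi, 130 in primed cells and 19 in the change. With only the groups compared they were 938 with JNKi, 2832 in primed cells and 650 in the change. The effective length offset gave 242 in the change, and WT-kiEpiSC as the sole WT primed library gave 331 in primed cells and 183 in the change. With 1 library left out the counts were 287 to 392 in iCD1, 505 to 1609 with JNKi, 222 to 530 in primed cells and 119 to 330 in the change, and a lone library was then assumed to vary like the other groups. The share of calls higher in the WT system was 40.0% by limma against 50.4% with JNKi, 38.4% against 57.8% in the change, and 51.4% by DESeq2 against 40.4% in primed cells.

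Replicate numbers did not pair the libraries (correlations of deviations between -0.06 and 0.15). With the replicate block the counts were 1197, 1390, 792 and 523 for iCD1, JNKi, primed cells and the change.

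The 109 gene results in the text gave 1113 values under the other alternatives, of which 0 were reversed and 107 lost the threshold, 64 of them with all 38 libraries, 21 by limma, 9 with the effective length offset and 8 by DESeq2. With 1 library left out, 106 of 472 values lost the threshold and 0 were reversed. DESeq2's size factors and the block cost no call. The day 3 libraries of WT kiEpiSC held 2882932 and 3056886 counts, so genes under a few CPM rest on about 10 counts or fewer.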
